A study of Mus musculus with 48 samples.

Results

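The late step of adipocyte differentiation in wild-type (WT) mouse embryonic fibroblasts (MEFs) was followed by comparing day 12 with day 8. These 6 of the 48 RNA-seq libraries of the series, 3 at each day, were chosen by the cell, genotype and day in the sample labels. MEFs are fibroblast-like cells grown from whole embryos and are a mixed population. All 6 libraries came from C57BL/6 cells with intact Hmgn1 and Hmgn2 genes that had been grown to confluence and induced with insulin, dexamethasone, the phosphodiesterase inhibitor IBMX, the thyroid hormone T3 and the PPARG agonist rosiglitazone. The day 8 cells were labelled as differentiating MEFs and had been kept in this medium for 8 days. The day 12 cells were labelled as adipocytes and had spent 4 more days in a maintenance medium that held insulin and T3 alone. Between the 2 days, therefore, the cells aged by 4 days and lost dexamethasone, IBMX and rosiglitazone, and these changes cannot be told apart. The rest of the series holds WT MEFs at days 0 and 4, MEFs of a double knockout (DKO) of Hmgn1 and Hmgn2 at the same 4 days, and white preadipocytes of inguinal fat of both genotypes at days 0, 3, 6 and 9.

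An adipocyte forms when a confluent fibroblast-like precursor stops dividing, activates the transcription factors PPARG and CEBPA, and turns on the genes for taking up, making and storing fat. Dexamethasone acts through the glucocorticoid receptor, IBMX raises cyclic AMP by blocking its breakdown, and rosiglitazone is a direct ligand of PPARG. In the last stage of such cultures the lipid-making enzymes, the coat proteins of the lipid droplet and the fat-derived hormones rise, while replication genes are shut down. Expression is given below as CPM, the count of a gene scaled to a common library size, with TMM factors set within the libraries compared. In bulk RNA, more cells of a type and more RNA per cell cannot be told apart.

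The 6 libraries held 18962481 to 29845097 counts. One of them, day 8 replicate 2, stood apart. Over 13879 genes its log2 CPM correlated with the other day 8 WT libraries at 0.963 and 0.964, whereas those other libraries correlated with each other at 0.996 and the 3 day 12 libraries at 0.996 to 0.997. It was closer to the day 4 WT libraries (0.983 to 0.984). Of 15292 genes, 1202 (7.86%) differed by more than 1 on the log2 scale between replicate 2 and the mean of replicates 1 and 3, against 40 (0.262%) between replicates 1 and 3. Summed over the list, adipocyte markers were low in it and interferon-stimulated genes were high. The list of adipocyte markers reached 15510, 6639 and 15410 summed CPM at day 8 and 30590, 30200 and 30550 at day 12, and the macrophage list 5517, 9726 and 5525 summed CPM at day 8 and 6645, 6611 and 6657 at day 12. The higher macrophage sum of replicate 2 came mostly from the lysozyme gene Lyz2 (7170 CPM, against 2798 and 2761 CPM), while C1qa differed little and F13a1 and Cd163 were lower in it. The main counts below are therefore given with all 6 libraries and again without day 8 replicate 2, and the reason for its difference was not tested. Day 4 replicate 1 in turn stood apart from its own replicates on the side of day 8. Its second principal component score was 10.4, against 52.8 and 52.2 for the other day 4 libraries and 33.2 for day 8 replicate 2, and it correlated with day 8 replicates 1 and 3 at 0.984 each. All libraries were used as labelled, and whether labels were exchanged was not tested.

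**Figure D1:**
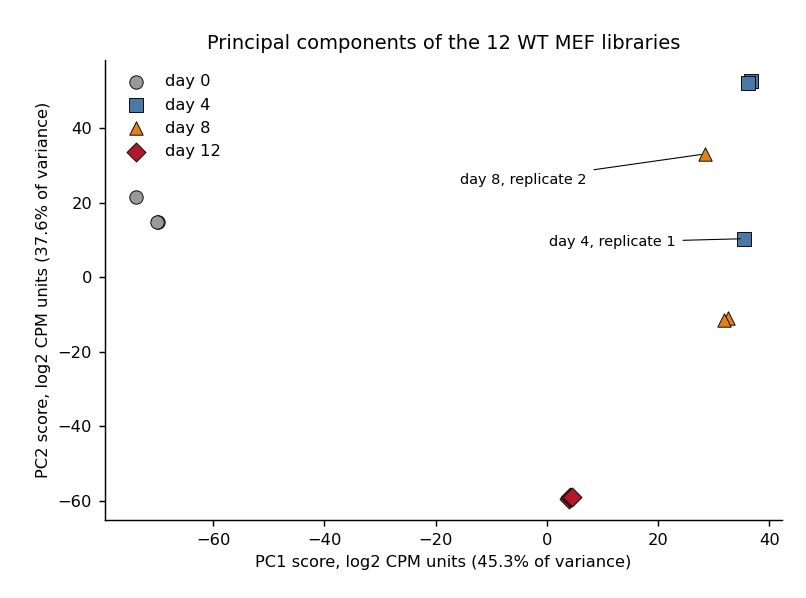
First and second principal components of the 12 WT MEF libraries, computed on log2 CPM; each point is 1 library and the marker shows the day. The 3 day 12 libraries lie together, day 8 replicates 1 and 3 lie together, and day 8 replicate 2 lies between that pair and day 4 replicates 2 and 3 on the second component.

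The step changed a large share of the expressed genes in both directions. A gene was called when edgeR's quasi-likelihood test gave a Benjamini-Hochberg adjusted p under 0.05 and the fold change was at least 1.5. Rises and falls written as a bare number below are on the log2 scale, and "without replicate 2" means without day 8 replicate 2. Of 15292 genes tested, 3282 were called (21.5%), of which 1892 (12.4% of all tested) were higher and 1390 (9.09%) lower at day 12. Without day 8 replicate 2 the test called 4270 of 15655 genes (27.3%), 2489 higher (15.9%) and 1781 lower (11.4%). Called genes common to both fits numbered 2986, which was 91% of the first set and 69.9% of the second, and none of them changed sign. Rises were more often large than falls: 117 genes rose and 16 fell by a called factor of 8 or more (129 and 35 without replicate 2), and the median log2 fold change over all genes tested was -0.02. The CPM ranges of the 2 days did not overlap for 57.5% of the genes tested. The labels do not say that the libraries of a day came from separate embryos, so p-values measure the spread between these samples, which may be technical.

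Among called genes with separated ranges, the one with the smallest p was Acacb, the acetyl-CoA carboxylase whose product, malonyl-CoA, restrains fatty acid entry into mitochondria. It stood at 15.3, 14.8 and 16.7 CPM at day 8 and 129, 123 and 122 CPM at day 12, so that every day 12 library lay far above every day 8 library (log2 fold change 2.997 ± 0.07 SE, adjusted p = 2.33e-05, and 2.96 without replicate 2). On a scaling over all 24 MEF libraries it had been at 10.6 to 12.6 CPM at day 0 and 16.6 to 20.98 CPM at day 4, and the earlier levels given below use the same scaling. The genes that followed it included Egln3, an oxygen-dependent prolyl hydroxylase, at 5.43, 4.80 and 5.86 CPM at day 8 and 50.3, 46.2 and 46.2 CPM at day 12 (log2 fold change 3.15 ± 0.10 SE, adjusted p = 2.54e-05, and 3.06 without replicate 2). Pdk1, which inhibits pyruvate dehydrogenase, stood at 22.3, 21.5 and 21.9 CPM at day 8 and 75.6, 71.6 and 68.6 CPM at day 12 (log2 fold change 1.72 ± 0.06 SE, adjusted p = 2.54e-05, and 1.704 without replicate 2). Both genes of glycogen handling in this group rose as well. Pygl, the liver-type glycogen phosphorylase, had a log2 fold change of 2.19 (2.21 without replicate 2), and Ppp1r3b, a glycogen-targeting phosphatase subunit, one of 1.77 (1.75). Spp1, the secreted protein osteopontin, rose from 229.6 ± 11.5 to 912 ± 11.6 CPM (SD, n = 3 each). It had been at 1093 to 1503 CPM at day 0 and 182 to 199.7 CPM at day 4. Ablim1, an actin-binding LIM protein, and Syn2, a synapsin, rose with log2 fold changes of 2.16 and 3.58 (2.12 and 3.62 without replicate 2).

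Several of the genes with the largest called rises started close to the detection limit. Lrrc39, a leucine-rich repeat protein of muscle sarcomeres, had 2, 1 and 1 counts at day 8 and 144, 204 and 186 counts at day 12, and no fold is given because day 8 was at or under the floor of 3 counts in every library. Tmem182, a membrane protein expressed in muscle and fat, had 7, 0 and 15 counts at day 8 and 622, 922 and 704 counts at day 12. Arg1, the arginase of urea synthesis and of alternatively activated macrophages, had 2, 0 and 6 counts at day 8 and 231, 357 and 292 counts at day 12. All 3 were nearly silent at day 8 and present in every day 12 library. Aldh3b2, an aldehyde dehydrogenase, stood at 3.96, 0.133 and 3.13 CPM at day 8 and 75.7, 69.5 and 74.96 CPM at day 12 (log2 fold change 4.95 ± 0.67 SE, adjusted p = 0.00245, and 4.38 without replicate 2). Adora1, the adenosine A1 receptor that restrains lipolysis in fat cells, stood at 3.01, 1.38 and 4.28 CPM at day 8 and 73.7, 73.4 and 73.8 CPM at day 12 (log2 fold change 4.67 ± 0.34 SE, adjusted p = 0.000277, and 4.31 without replicate 2). Apoc3, an apolipoprotein of triglyceride-rich particles, had 4, 0 and 2 counts at day 8 and 118, 209 and 168 counts at day 12. Hephl1, a copper-dependent ferroxidase, and Fam57b, a ceramide-related membrane protein, rose with log2 fold changes of 5.49 and 4.902 (4.95 and 4.77 without replicate 2). Klhdc7a, a kelch-domain protein, rose by 4.66 (4.62).

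Fewer genes fell by as much. Il1rl1, the receptor of interleukin 33, stood at 48.8, 16.8 and 50.2 CPM at day 8 and 1.47, 1.86 and 2.26 CPM at day 12 (log2 fold change -4.36 ± 0.50 SE, adjusted p = 0.00142, and -4.72 without replicate 2). Has2, which makes the matrix polysaccharide hyaluronan, stood at 15.8, 7.29 and 17.2 CPM at day 8 and 1.19, 1.02 and 1.40 CPM at day 12 (log2 fold change -3.48 ± 0.38 SE, adjusted p = 0.000935, and -3.79 without replicate 2). Agtr2, a receptor of angiotensin II, was among the most abundant of the genes that fell, at 2316, 2039 and 2211 CPM at day 8 and 566, 541 and 551 CPM at day 12 (log2 fold change -1.99 ± 0.07 SE, adjusted p = 2.54e-05, and -2.04 without replicate 2). In all 3 the day 12 libraries lay below every day 8 library. Nptx1, a neuronal pentraxin, Corin, a protease that activates natriuretic peptide, Ptprn, a protein of secretory granules, and Sox11, an embryonic transcription factor, fell with log2 fold changes of -3.85, -3.69, -3.36 and -2.98 (-4.19, -4.17, -2.97 and -2.14 without replicate 2). Sox11 was higher in replicate 2 than in the other day 8 libraries, at 18.2 CPM against 5.33 and 5.56 CPM. Bmper, a secreted regulator of BMP signalling, fell by 1.61 (-1.62).

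Replication and mitosis genes fell. Of 31 cell cycle genes tested, 29 fell and 1 rose, with a median log2 fold change of -2.03 against -0.02 over all genes tested, and the counts were the same without day 8 replicate 2 (median -2.0). Among all genes tested 9.09% fell and 12.4% rose (11.4% and 15.9% without replicate 2). Top2a, the topoisomerase that untangles sister chromosomes, stood at 143, 139 and 141 CPM at day 8 and 26.96, 23.5 and 24.2 CPM at day 12 (log2 fold change -2.501 ± 0.07 SE, adjusted p = 2.42e-05, and -2.52 without replicate 2). Mki67, the proliferation antigen Ki-67, stood at 112, 115 and 112 CPM at day 8 and 31.7, 31.3 and 33.3 CPM at day 12 (log2 fold change -1.81 ± 0.05 SE, adjusted p = 2.42e-05, and -1.800 without replicate 2). For both genes the day 8 libraries, replicate 2 included, lay within a few CPM of each other and well above day 12. The mitotic cyclins Ccnb1, Ccnb2 and Ccna2 fell with log2 fold changes of -2.42, -2.06 and -2.13, and Cdk1, the kinase they activate, with -1.73. Of the replicative helicase, Mcm2 to Mcm7 fell, with log2 fold changes between -1.23 (Mcm4) and -2.06 (Mcm5). Rrm2, which supplies deoxynucleotides, had a log2 fold change of -2.25 and Pcna, the replication clamp, one of -1.31.

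The other members of the list act at the start of the cycle. Ccnd1, the cyclin that links growth signals to the cycle, stood at 108, 102 and 119.8 CPM at day 8 and 220.4, 216 and 215 CPM at day 12 (log2 fold change 0.98 ± 0.07 SE, adjusted p = 0.000199, and 0.93 without replicate 2), above the day 8 range in every day 12 library. E2f1, the transcription factor of the S phase genes, was not called (log2 fold change -0.34 ± 0.15 SE, adjusted p = 0.114). Genes outside the list but named for their small p also fell: Pole, a DNA polymerase, Hmmr, a spindle protein, Ncapd2, a condensin subunit, Uhrf1, which maintains DNA methylation, and the chromatin protein Hmgb2 had log2 fold changes of -2.21, -2.395, -1.51, -2.04 and -1.91. So did Exo1, a DNA repair nuclease, Esco2, which builds sister chromatid cohesion, and the kinesin Kif18b, with -3.06, -2.98 and -2.97. Top2a was at 94.05 to 112 CPM at day 0 and 131 to 162 CPM at day 4.

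Many mitotic genes carry CCAAT boxes and a cell cycle homology region in their promoters, and 3 promoters of genes that fell are shown for that reason. The sequences are the 250 bases before the RefSeq start in GRCm38.p6 (mm10), 5′ to 3′ on the gene's strand. Capitals mark CCAAT and TTTGAA and their reverse complements, ATTGG and TTCAAA.
Top2a (chr11:99024190-99024439, minus strand): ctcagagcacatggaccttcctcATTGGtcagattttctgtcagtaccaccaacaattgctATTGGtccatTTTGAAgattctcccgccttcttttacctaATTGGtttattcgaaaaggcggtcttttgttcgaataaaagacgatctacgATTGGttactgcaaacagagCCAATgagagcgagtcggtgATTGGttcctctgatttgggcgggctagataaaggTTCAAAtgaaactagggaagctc
Ccnb2 (chr9:70421555-70421804, minus strand): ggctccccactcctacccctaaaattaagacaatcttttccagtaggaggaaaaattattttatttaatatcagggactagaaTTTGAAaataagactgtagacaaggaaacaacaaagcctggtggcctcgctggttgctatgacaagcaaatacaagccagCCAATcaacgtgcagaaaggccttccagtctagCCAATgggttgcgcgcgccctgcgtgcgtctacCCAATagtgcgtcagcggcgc
Cdk1 (chr10:69352913-69353162, minus strand): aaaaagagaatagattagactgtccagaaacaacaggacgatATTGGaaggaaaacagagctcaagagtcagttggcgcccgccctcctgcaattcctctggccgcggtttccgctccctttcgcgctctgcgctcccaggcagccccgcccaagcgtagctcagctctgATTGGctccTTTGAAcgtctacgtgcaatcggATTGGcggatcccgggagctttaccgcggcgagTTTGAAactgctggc

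The Top2a window held CCAAT on either strand 6 times, and those of Ccnb2 and Cdk1 3 times each. In Ccnb2 the TTTGAA begins 167 bases before the start, farther out than its CCAAT boxes at 87, 54 and 21. Whether any marked TTTGAA acts as a cell cycle homology region was not tested. Among genes with a single listed start, CCAAT was present in 20 of 24 cell cycle genes that fell (83.3%) and in 3239 of 8706 genes tested (37.2%). TTTGAA was present in 8 of 24 (33.3%) and 940 of 8706 (10.8%). Almost all of this list of cell cycle genes fell, so its shares do not bear on the fall at day 12. Among all called genes with a single listed start, CCAAT was in 362 of 795 lower (45.5%) and 327 of 1027 higher (31.8%). For TTTGAA the counts were 114 lower (14.3%) and 124 higher (12.1%). Of all 32851 listed windows of this length, 33.8% held CCAAT and 16% held TTTGAA. The match of letters is a description and does not show that a factor was bound.

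Genes that cyclic AMP induces fell more often than they rose over the days in which IBMX was withdrawn. Of 16 tested, 9 fell and 1 rose (median log2 fold change -0.71), and without day 8 replicate 2 8 fell and 1 rose (median -0.57). Among all genes tested 9.09% fell and 12.4% rose (11.4% and 15.9% without replicate 2). Pde4b, a phosphodiesterase that degrades cyclic AMP and is itself induced by it, stood at 71.4, 79.1 and 70.6 CPM at day 8 and 10.8, 10.5 and 9.86 CPM at day 12 (log2 fold change -2.83 ± 0.08 SE, adjusted p = 2.42e-05, and -2.77 without replicate 2). Over the course it had been at 23.01 to 30.7 CPM at day 0 and 73.9 to 101 CPM at day 4, and day 12, at 10.2 to 11.2 CPM on that scaling, lay below both. Dio2, the deiodinase that activates thyroid hormone, stood at 63.9, 34.1 and 61.8 CPM at day 8 and 6.32, 7.32 and 6.98 CPM at day 12 (log2 fold change -2.95 ± 0.26 SE, adjusted p = 0.000514, and -3.18 without replicate 2). Its day 0 level was 2.07 to 2.76 CPM. For both genes every day 12 library was below every day 8 library.

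The 3 NR4A orphan receptors, early targets of cyclic AMP signalling, fell with log2 fold changes of -1.14 (Nr4a1), -1.28 (Nr4a2) and -2.08 (Nr4a3), and with -1.21, -1.27 and -2.21 without replicate 2. Nr4a1 stood at 27.6, 23.3 and 27.1 CPM at day 8 and 11.99, 11.1 and 12.3 CPM at day 12. The phosphodiesterases Pde10a and Pde4d fell with log2 fold changes of -1.23 and -0.80 (-1.097 and -0.65 without replicate 2). The regulator of G protein signalling Rgs2 fell by 0.64. Gem, a small GTPase, fell by 0.68 with 6 libraries but had a log2 fold change of -0.50 without replicate 2, which is under the 1.5-fold limit. The immediate early genes Fos and Junb were not called, with log2 fold changes of 0.13 ± 0.10 and -0.17 ± 0.14 (SE, adjusted p = 0.318 and 0.373). The gene that rose was Ppargc1a, the coactivator of mitochondrial and thermogenic genes, which stood at 5.86, 3.91 and 7.67 CPM at day 8 and 19.4, 20.4 and 20.9 CPM at day 12 (log2 fold change 1.797 ± 0.22 SE, adjusted p = 0.0015, and 1.57 without replicate 2).

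The promoters of 3 of these genes are shown because they carry the letters of the cyclic AMP response element. Capitals mark the short element TGACG or its reverse complement CGTCA, in the same windows and build as above.
Dio2 (chr12:90739039-90739288, minus strand): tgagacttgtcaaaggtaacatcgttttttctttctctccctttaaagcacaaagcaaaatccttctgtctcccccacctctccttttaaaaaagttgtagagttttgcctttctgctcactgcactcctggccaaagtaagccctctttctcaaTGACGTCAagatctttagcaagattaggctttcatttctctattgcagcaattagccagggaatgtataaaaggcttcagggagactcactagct
Nr4a1 (chr15:101266596-101266845, plus strand): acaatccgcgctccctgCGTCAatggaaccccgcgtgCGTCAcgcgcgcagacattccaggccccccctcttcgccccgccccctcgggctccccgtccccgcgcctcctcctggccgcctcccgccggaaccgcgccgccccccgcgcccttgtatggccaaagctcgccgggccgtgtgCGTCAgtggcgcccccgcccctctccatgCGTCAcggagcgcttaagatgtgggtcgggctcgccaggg
Nr4a3 (chr4:48045055-48045304, plus strand): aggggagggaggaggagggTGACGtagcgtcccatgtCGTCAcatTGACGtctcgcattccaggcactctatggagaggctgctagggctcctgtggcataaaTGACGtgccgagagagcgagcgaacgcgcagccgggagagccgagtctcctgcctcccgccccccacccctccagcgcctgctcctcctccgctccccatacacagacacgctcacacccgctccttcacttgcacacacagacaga

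In the Dio2 window TGACG and its reverse complement overlap and form the full palindrome TGACGTCA, which 243 of 8706 genes tested with a single listed start (2.79%) and 1.55% of all listed windows also held. Nr4a1 and Nr4a3 carried 4 TGACG elements each. TGACG was present in 10 of 11 genes of the list with a single listed start (5 of the 6 that fell), in 2362 of 8706 genes tested (27.1%) and in 17.8% of all listed windows. The list was made of genes that cyclic AMP induces, so its share does not bear on the fall at day 12. Among all called genes with a single listed start, 245 of 795 lower (30.8%) and 178 of 1027 higher (17.3%) held TGACG. As above, the letters are a description only.

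Genes that glucocorticoids induce were called at about the rate of all genes over the days in which dexamethasone was withdrawn. Over all genes tested 12.4% rose and 9.09% fell (15.9% and 11.4% without replicate 2). Of 24 tested, 4 rose and 1 fell, with a median log2 fold change of -0.02, and the counts were the same without replicate 2 (median 0.06). Fkbp5, a cochaperone of the glucocorticoid receptor, stood at 326, 282 and 326 CPM at day 8 and 397, 380.3 and 375 CPM at day 12, and the small difference did not reach the fold limit (log2 fold change 0.30). Tsc22d3, which encodes the glucocorticoid-induced leucine zipper GILZ, rose, and stood at 228, 239.6 and 231 CPM at day 8 and 372, 364 and 363 CPM at day 12 (log2 fold change 0.65 ± 0.05 SE, adjusted p = 0.000249, and 0.68 without replicate 2). The clock gene Per1 was at 81.9, 80.7 and 79.98 CPM at day 8 and 79.3, 82.1 and 79.9 CPM at day 12, with a log2 fold change of -0.01 ± 0.04 (SE). Sult1a1, a sulfotransferase, and Serpina3n, a protease inhibitor, rose by 2.32 and 1.24 (1.91 and 0.92 without replicate 2). Ddit4, an inhibitor of mTORC1, was the gene called lower with 6 libraries (-0.68, and -0.48 without replicate 2). In its place Cdkn1c, a cell cycle inhibitor, was called lower without replicate 2 (-1.14, adjusted p = 1.85e-32).

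Adipocyte genes rose or were not called, and how many passed the test depended on day 8 replicate 2. Of 30 adipocyte markers, 14 rose and 0 fell with all 6 libraries (median log2 fold change 1.56), and 21 rose and 0 fell without replicate 2 (median 1.16). Without any 1 of the day 12 libraries 9 rose. Of 28 PPAR target genes, several of them on both lists, 14 rose and 0 fell with all libraries and 18 rose and 0 fell without replicate 2 (medians 1.38 and 1.16). Among all genes tested 12.4% rose and 9.09% fell (15.9% and 11.4% without replicate 2). Gpd1, which makes the glycerol 3-phosphate backbone of triglycerides, stood at 229.5, 28.2 and 239 CPM at day 8 and 2609, 2619 and 2601 CPM at day 12 (log2 fold change 3.98 ± 0.78 SE, adjusted p = 0.00956, and 3.48 without replicate 2). Cfd, the secreted protease adipsin, stood at 3.48, 1.29 and 3.00 CPM at day 8 and 47.5, 44.3 and 43.3 CPM at day 12 (log2 fold change 4.13 ± 0.30 SE, adjusted p = 0.000263, and 3.801 without replicate 2). Adrb3, the adrenergic receptor typical of adipocytes, stood at 4.27, 0.489 and 5.29 CPM at day 8 and 52.1, 48.2 and 47.3 CPM at day 12 (log2 fold change 3.88 ± 0.60 SE, adjusted p = 0.00403, and 3.35 without replicate 2). Day 12 was far above day 8 in each of them, and replicate 2 was the lowest day 8 library in each.

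The insulin-responsive glucose transporter Slc2a4 and the glycerol channel Aqp7 rose with log2 fold changes of 3.31 and 3.83 (2.79 and 3.37 without replicate 2). Among droplet proteins, Plin4, Cidec and Plin5 rose by 3.17, 2.88 and 2.98 (2.72, 2.35 and 2.49), and Plin2, the coat protein of droplets in most cells, by 1.34 (1.49). The hormone resistin (Retn) rose by 2.81 (2.31). Other well known markers differed widely within day 8. Adiponectin (Adipoq) stood at 246, 19.5 and 240.1 CPM at day 8 and 753, 739 and 749 CPM at day 12. With all 6 libraries it was not called (log2 fold change 2.15 ± 0.83 SE, adjusted p = 0.0844), and without replicate 2 it was (1.62, adjusted p = 2.79e-39). The fatty acid carrier Fabp4 stood at 2774, 396 and 2654 CPM at day 8 and 6165, 6212 and 6561 CPM at day 12, with adjusted p = 0.0872 with and 6.46e-34 without that library (log2 fold change 1.701 and 1.22). In both genes all day 12 libraries were above all day 8 libraries. The fit without replicate 2 keeps only day 8 replicates 1 and 3, which lay close together. Its small adjusted p-values rest on that narrow spread, which may be technical.

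The master regulators Pparg and Cebpa were not called. Pparg stood at 43.95, 19.8 and 47.3 CPM at day 8 and 65.9, 60.96 and 65.2 CPM at day 12, a difference that was not called in either fit (log2 fold change 0.79 and, without replicate 2, 0.48). Cebpa stood at 223, 95.2 and 225 CPM at day 8 and 219, 217 and 216 CPM at day 12, with replicates 1 and 3 of day 8 close to day 12 (log2 fold change 0.26 and -0.04, not called). Lipoprotein lipase (Lpl) was already at 5319 and 5190 CPM in these libraries and at 6385 ± 172 CPM (SD, n = 3) at day 12 (log2 fold change 0.49 and 0.28, not called in either fit). Car3, a carbonic anhydrase abundant in fat, stood at 887, 7.47 and 909.6 CPM at day 8 and 1005, 1031 and 1005 CPM at day 12, so that replicate 2 had almost none. Dgat2, which makes triglycerides from newly formed fatty acids, stood at 149, 80.4 and 155 CPM at day 8 and 103, 104 and 103 CPM at day 12, with day 12 inside the day 8 range (log2 fold change -0.31 and -0.56). Leptin (Lep) was below 1 CPM in all libraries but day 12 replicate 3, at 0.369, 0.489 and 0.265 CPM at day 8 and 0.870, 0.745 and 1.07 CPM at day 12 (log2 fold change 1.24 ± 0.34 SE, adjusted p = 0.0279, and 1.49 without replicate 2), and its call was lost on leaving out any 1 library other than day 8 replicate 2.

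**Figure D2:**
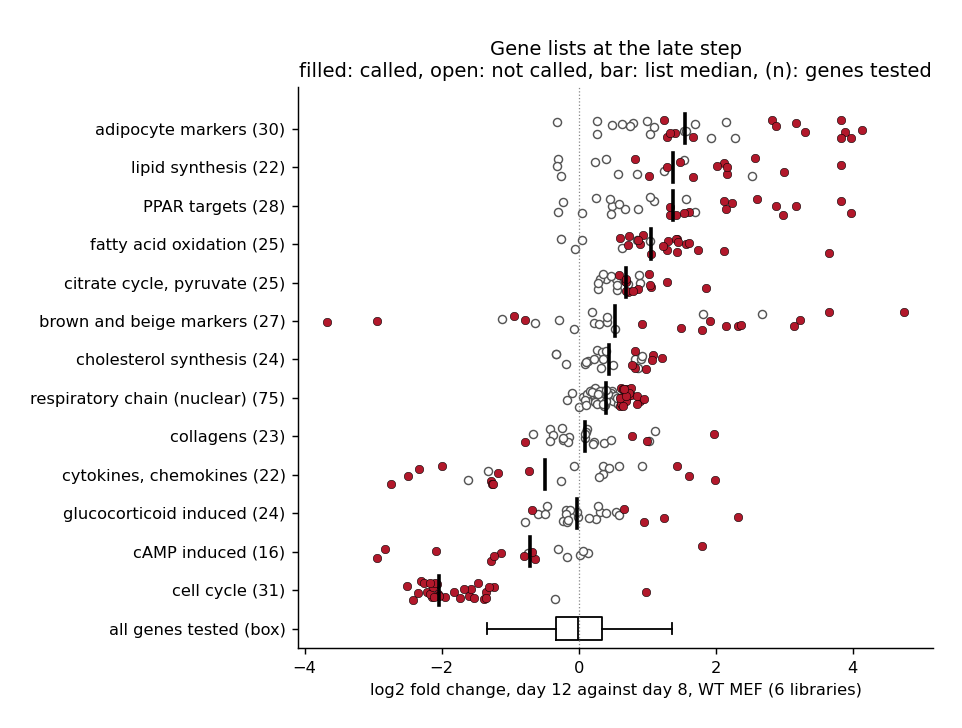
Log2 fold changes of the genes tested on 13 of the lists, day 12 against day 8 with all 6 WT MEF libraries; each point is 1 gene, filled where called, a bar marks the list median and the box shows the quartiles of all genes tested with whiskers to 1.5 times the interquartile range. All cell cycle genes but Ccnd1 lie below 0, and the genes of the lipid lists lie mostly above it.

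Enzymes that make fatty acids from glucose rose at several steps of the route. Of 22 lipid synthesis genes tested, 12 rose and 0 fell (median log2 fold change 1.38), and 17 rose and 0 fell without replicate 2 (median 1.08). Among all genes tested 12.4% rose (15.9% without replicate 2). Acly, which cuts citrate into acetyl-CoA, stood at 349, 230 and 368 CPM at day 8 and 1440, 1391 and 1411 CPM at day 12 (log2 fold change 2.16 ± 0.18 SE, adjusted p = 0.000354, and 1.98 without replicate 2). Fasn, the fatty acid synthase, stood at 1278, 407 and 1337 CPM at day 8 and 4090, 4105 and 4057 CPM at day 12 (log2 fold change 2.02 ± 0.44 SE, adjusted p = 0.0133, and 1.64 without replicate 2). Me1, the malic enzyme that supplies NADPH, stood at 221, 149.8 and 223 CPM at day 8 and 1190, 1166 and 1175 CPM at day 12 (log2 fold change 2.57 ± 0.16 SE, adjusted p = 0.000149, and 2.41 without replicate 2). Day 12 was higher than every day 8 library in all 3. The citrate carrier Slc25a1, Acaca, the carboxylase of the synthetic route, and Thrsp, a lipogenic regulator, rose by 1.47, 2.12 and 3.82 (1.34, 1.75 and 3.32 without replicate 2).

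Scd1, the desaturase that makes oleic acid, was the most abundant of these transcripts, at 3257, 190.3 and 3234 CPM at day 8 and 12840, 12730 and 12890 CPM at day 12. Replicate 2 lay far below its day 8 replicates, and the change was called only without it (log2 fold change 1.98, against 2.52 with adjusted p = 0.0743 with all 6). The elongases Elovl5 and Elovl6 were not called (log2 fold change -0.30 and -0.26). Of the pentose phosphate enzymes on the list, Tkt rose (1.02, and 1.06 without replicate 2), whereas Pgd was at 299, 690.1 and 308 CPM at day 8 and 521, 511 and 498 CPM at day 12, highest in replicate 2, and was called only without that library (0.75). Of 24 genes of cholesterol synthesis and its regulation 7 rose and 0 fell, in both fits (medians 0.45 and 0.33), led by the sterol sensor partner Insig1 (1.21) and the reductase Dhcr7 (1.07). Among all genes tested 12.4% rose (15.9% without replicate 2).

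Most enzymes that burn fatty acids rose as well. Of 25 fatty acid oxidation genes, 19 rose and 0 fell (median 1.05), and 17 rose and 0 fell without replicate 2 (median 0.92). Among all genes tested 12.4% rose (15.9% without replicate 2). Cpt1b, the carnitine transferase of muscle and brown fat, stood at 2.90, 1.42 and 3.53 CPM at day 8 and 33.7, 31.5 and 33.1 CPM at day 12 (log2 fold change 3.65 ± 0.28 SE, adjusted p = 0.000279, and 3.33 without replicate 2). Cpt1a, the form of most other tissues, stood at 91.02, 114 and 85.8 CPM at day 8 and 82.03, 83.9 and 78.2 CPM at day 12 and was not called (-0.25). The medium-chain dehydrogenase Acadm rose by 1.74 and the trifunctional protein subunit Hadhb by 1.44 (1.39 and 1.24 without replicate 2). Pdk4, which spares glucose by blocking pyruvate dehydrogenase, rose by 1.61 (1.36). Long-chain Acadl was an exception, at 424, 139.6 and 427 CPM at day 8 and 317, 324 and 315 CPM at day 12.

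Genes of pyruvate entry and of the citrate cycle rose or were not called. Of 25 genes 13 rose and 0 fell with all libraries (median 0.69) and 9 rose and 0 fell without replicate 2 (median 0.51), and all 25 had a positive log2 fold change in each fit. The mitochondrial pyruvate carrier Mpc1 led them, at 90.9, 50.5 and 89.6 CPM at day 8 and 285, 275 and 279 CPM at day 12 (log2 fold change 1.86 ± 0.23 SE, adjusted p = 0.00173, and 1.63 without replicate 2). Pcx, which feeds the cycle with oxaloacetate, stood at 602, 476 and 626 CPM at day 8 and 1215, 1174 and 1158 CPM at day 12 (log2 fold change 1.06 ± 0.11 SE, adjusted p = 0.00068, and 0.95 without replicate 2). Of 75 nuclear genes of the respiratory chain 22 rose and 0 fell, a larger share than the 12.4% of all genes that rose. Without replicate 2 only 8 rose, a smaller share than the 15.9% of all genes that rose in that fit. The median went from 0.39 to 0.27, both under the fold limit. Of 13 mitochondrial protein genes 0 rose and 1 fell in both fits, and the one that fell was mt-Nd6 (-0.73), which is encoded on the other strand of the mitochondrial genome from the rest.

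Brown and beige fat markers split. Of 27 tested 11 rose and 4 fell (median 0.53), and 13 rose and 6 fell without replicate 2 (median 0.58). Among all genes tested 12.4% rose and 9.09% fell (15.9% and 11.4% without replicate 2). Ucp1, the uncoupling protein that makes heat in brown fat, was close to undetected, with 6, 0 and 10 counts at day 8 and 16, 30 and 22 counts at day 12. Those counts are 0.317, 0 and 0.441 CPM at day 8 and 0.732, 1.02 and 0.904 CPM at day 12, and the difference was called only without replicate 2 (log2 fold change 1.81, adjusted p = 0.087 with all 6, and 1.21 and 0.0223 without). Cidea, a droplet protein of brown fat, had 1, 0 and 2 counts at day 8 and 34, 44 and 28 counts at day 12, with day 8 at or under the floor of 3 counts, so no fold is given. The respiratory subunit Cox7a1 stood at 0.686, 0.578 and 0.882 CPM at day 8 and 6.13, 7.55 and 6.65 CPM at day 12 (log2 fold change 3.23 ± 0.21 SE, adjusted p = 0.000151, and 3.096 without replicate 2). Kcnk3, a potassium channel, Fabp3, a fatty acid carrier, and the nuclear receptor Ppara rose by 2.37, 3.13 and 1.92 (1.98, 2.81 and 1.64).

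Elovl3, an elongase induced in brown fat by cold, stood at 26.3, 1.02 and 27.4 CPM at day 8 and 112, 118 and 116 CPM at day 12, with the lowest library again replicate 2 (adjusted p = 0.0537 with and 3.04e-34 without it, log2 fold change 2.67 and 2.11). Against these, Dio2 fell as given above, and Cited1, a transcriptional coregulator used as a beige marker, fell, and stood at 5.43, 3.29 and 5.03 CPM at day 8 and 0.366, 0.440 and 0.246 CPM at day 12 (log2 fold change -3.67 ± 0.32 SE, adjusted p = 0.000377, and -3.86 without replicate 2). The lineage factors Zic1 and Lhx8 fell with log2 fold changes of -0.79 and -0.95 (-0.82 and -0.89 without replicate 2). Prdm16, which sustains brown fat identity, was at 9.87, 6.98 and 9.52 CPM at day 8 and 11.03, 9.82 and 10.1 CPM at day 12, and Ppargc1b at 8.92, 2.22 and 10.8 CPM at day 8 and 8.70, 9.65 and 10.9 CPM at day 12, and neither was called in either fit. Ebf2 and Ear2 were called lower only without replicate 2 (-0.60 and -1.18). Otop1, Slc27a2 and Bmp8b had too few counts to be tested.

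**Figure D3:**
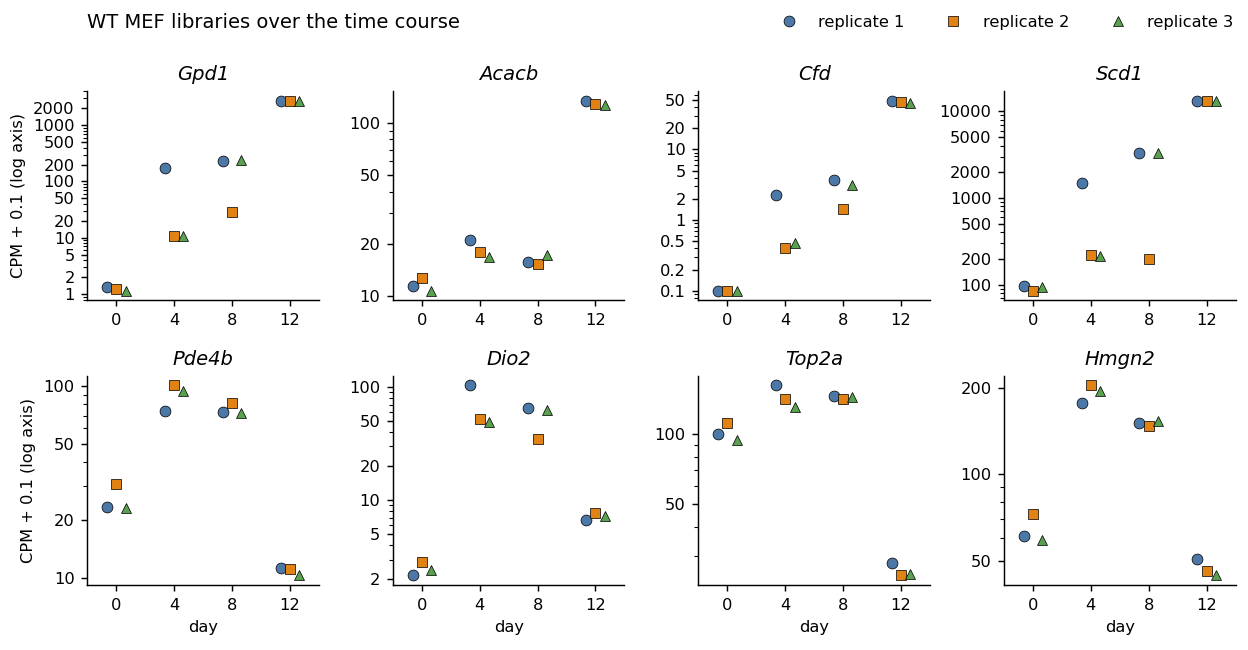
CPM plus 0.1 on a log axis for 8 genes in the 12 WT MEF libraries over days 0, 4, 8 and 12, scaled by TMM over all 24 MEF libraries; each marker is 1 library and its shape gives the replicate number. Gpd1, Acacb, Cfd and Scd1 are highest at day 12, while Pde4b, Top2a and Hmgn2 are lowest there and Dio2 is below days 4 and 8; in Gpd1, Cfd and Scd1 day 8 replicate 2 and day 4 replicates 2 and 3 lie below their groups' other libraries.

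With all 6 libraries matrix genes were called at about the rate of all genes, of which 12.4% rose and 9.09% fell. Without replicate 2 the shares of all genes were 15.9% and 11.4%. Of 23 collagen chains 3 rose and 1 fell (median 0.09), and 5 rose and 4 fell without replicate 2 (median -0.09). Col3a1, a fibrillar collagen and the most abundant chain at day 8, stood at 13180, 10750 and 13670 CPM at day 8 and 7389, 7278 and 7192 CPM at day 12 (log2 fold change -0.78 ± 0.10 SE, adjusted p = 0.00159, and -0.88 without replicate 2). Col1a1 and Col1a2, the chains of type I collagen, were not called in either fit (log2 fold change 0.23 and 0.12, and -0.12 and -0.15 without replicate 2). Col16a1 and Col4a5 rose by 0.99 and 0.78 (1.22 and 1.05). Of 31 other matrix and remodelling genes 4 rose and 2 fell (7 and 2 without replicate 2). Ccn2, the connective tissue growth factor, stood at 56.2, 32.6 and 59.4 CPM at day 8 and 284, 279 and 272 CPM at day 12 (log2 fold change 2.49 ± 0.23 SE, adjusted p = 0.000613, and 2.27 without replicate 2), and had been at 136 to 249.5 CPM at day 0. Of 15 contractile genes 6 rose and 0 fell in each fit, and 4 of them were the same genes, Des (0.99), Tagln (0.92), Myl9 (0.75) and Tpm2 (0.59).

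Inflammatory signals fell more often than they rose. Of 22 cytokine, chemokine and acute phase genes tested 9 fell and 3 rose (median -0.49), and 9 fell and 5 rose without replicate 2. Among all genes tested 9.09% fell and 12.4% rose (11.4% and 15.9% without replicate 2). The neutrophil chemokines Cxcl1 and Cxcl5 fell with log2 fold changes of -2.74 and -2.495 and the eotaxin Ccl11 with -1.998 (-2.87, -2.803 and -1.89 without replicate 2). Saa3, an acute phase protein of fat, stood at 317, 166 and 309 CPM at day 8 and 103, 112 and 111 CPM at day 12 (log2 fold change -1.28 ± 0.25 SE, adjusted p = 0.00898, and -1.52 without replicate 2). Haptoglobin (Hp) went the other way, at 821, 303 and 858 CPM at day 8 and 2089, 1984 and 1994 CPM at day 12 (log2 fold change 1.61 ± 0.38 SE, adjusted p = 0.0183, and 1.27 without replicate 2). The call on interferon-stimulated genes depended on replicate 2. Their list stood at 333, 603 and 334 summed CPM at day 8 and 454, 452 and 453 at day 12. With all libraries 3 of 24 rose and without replicate 2 14 rose, none fell in either fit, and the median went from 0.13 to 0.85. Of all genes tested 12.4% rose with all libraries, about the rate of this list, and 15.9% without replicate 2. Gbp2, a guanylate-binding protein, rose in both (1.72 and 1.85).

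Macrophage markers were present at both days. Of 16 tested 7 rose and 0 fell, and 10 rose and 0 fell without replicate 2 (medians 0.50 and 0.72). Among all genes tested 12.4% rose (15.9% without replicate 2). The protease Ctss stood at 114, 122 and 117 CPM at day 8 and 324, 319.7 and 326 CPM at day 12 (log2 fold change 1.46 ± 0.05 SE, adjusted p = 2.54e-05, and 1.48 without replicate 2). Ptprc, the leukocyte antigen CD45, and Itgam, an integrin of myeloid cells, rose by 1.096 and 1.297 (1.24 and 1.55). The complement gene C1qa was at 340.3, 365 and 367 CPM at day 8 and 378, 355 and 349 CPM at day 12, and lysozyme (Lyz2) was at 2798, 7170 and 2761 CPM at day 8 and 2823, 2834 and 2888 CPM at day 12, high in replicate 2. Genes known from tissue macrophages were also among those named for a large rise or a small p over all genes. F13a1, coagulation factor XIII, stood at 39.4, 2.54 and 36.5 CPM at day 8 and 816, 822 and 822 CPM at day 12 (log2 fold change 4.97 ± 0.93 SE, adjusted p = 0.00802, and 4.44 without replicate 2). The scavenger receptor Cd163 rose by 4.78, the folate receptor Folr2 by 3.14 and Pld4 by 3.68 (4.32, 3.13 and 3.57 without replicate 2). Whether these transcripts came from macrophages in the cultures was not tested. Markers of other cell types are set beside the 21.5% of all genes called with all libraries and 27.3% without replicate 2. Of 8 fibroblast markers 1 rose and 1 fell. Of 6 endothelial markers 2 rose and 1 fell, and 2 rose and 3 fell without replicate 2. Of 4 cartilage and bone markers the 1 that rose was Spp1. Skeletal muscle and epithelial markers summed to 2.38 to 3.48 and 2.0 to 5.56 CPM per library. None of them was called with all libraries, and 1 of 3 and 1 of 3 tested were lower without replicate 2. None of 6 neural markers was called with all libraries and 2 of 7 were lower without replicate 2.

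Hmgn2, which encodes a nucleosome-binding protein and is one of the genes targeted in the DKO cells of the series, was among the 12 genes with the smallest p of those that fell. It stood at 148, 143 and 150.1 CPM at day 8 and 48.8, 43.9 and 42.96 CPM at day 12 (log2 fold change -1.702 ± 0.06 SE, adjusted p = 3.26e-05, and -1.73 without replicate 2), 3.25-fold lower at day 12. Its course went from 58.9 to 72.5 CPM at day 0 up to 176 to 204 CPM at day 4. Hmgn1 stood at 164, 179 and 166 CPM at day 8 and 112, 108 and 109.6 CPM at day 12 (log2 fold change -0.63 ± 0.05 SE, adjusted p = 0.000361, and -0.59 without replicate 2). Hmgn5 was not called (log2 fold change -0.39, and -0.38 without replicate 2). Hmgn3 was at 41.3, 93.8 and 34.1 CPM at day 8 and 31.4, 37.1 and 33.9 CPM at day 12, with replicate 2 far above its neighbours, and was not called in either fit. Of 22 genes that the study discusses in MEFs or preadipocytes, 6 rose and 3 fell (9 and 4 without replicate 2). Among all genes tested 12.4% rose and 9.09% fell (15.9% and 11.4% without replicate 2). Some of the 22 genes were picked on these samples, so their directions are not independent evidence.

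The same step was measured in MEFs labelled as knockouts of both Hmgn1 and Hmgn2. These libraries are separate from the WT ones. The labels were checked first: Hmgn2 had 0 to 3 counts in each of the 6 DKO libraries, while Hmgn1 transcripts remained at 85.2 to 115 CPM, so the check bears on Hmgn2 alone. Day 8 replicate 3 of the DKO stood apart much as WT day 8 replicate 2 did, and the pair correlated at 0.990. In the DKO cells 3677 of 15302 genes were called (24%), 1922 higher and 1755 lower, and without DKO day 8 replicate 3 27% were. Of the 3282 genes called in WT, 3200 were tested in DKO, 3165 (98.9%) had the same sign, and 2447 were called in the same direction, which is 74.6% of the WT calls and 66.5% of the DKO calls. No gene was called in opposite directions. Log2 fold changes in DKO were 3.16 for Gpd1, 3.52 for Acacb, -3.56 for Pde4b, -4.15 for Dio2 and -2.97 for Top2a.

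The difference between the genotypes was tested as the interaction of genotype and day over 12 libraries. edgeR's quasi-likelihood test called 0 of 15994 genes (0%), the unadjusted p was under 0.05 for 1215, and DESeq2 called 37. When WT day 8 replicate 2 and DKO day 8 replicate 3 were both left out, an alternative added after seeing the data, 98 of 16220 genes were called (0.604%), 29 (0.179%) with a larger and 69 (0.425%) with a smaller log2 fold change in DKO. The gene with the smallest p among the former was Pttg1, the mitotic securin. It fell by 1.53 in WT and had a log2 fold change of 0.58 in DKO, a difference of 2.12 (adjusted p = 0.0566 with all libraries and 1.61e-05 without the pair). Isyna1, which makes inositol, led the others, with -1.61 in WT and -2.61 in DKO (adjusted p of the difference = 0.0566 with all libraries and 8.06e-07 without the pair).

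**Figure D4:**
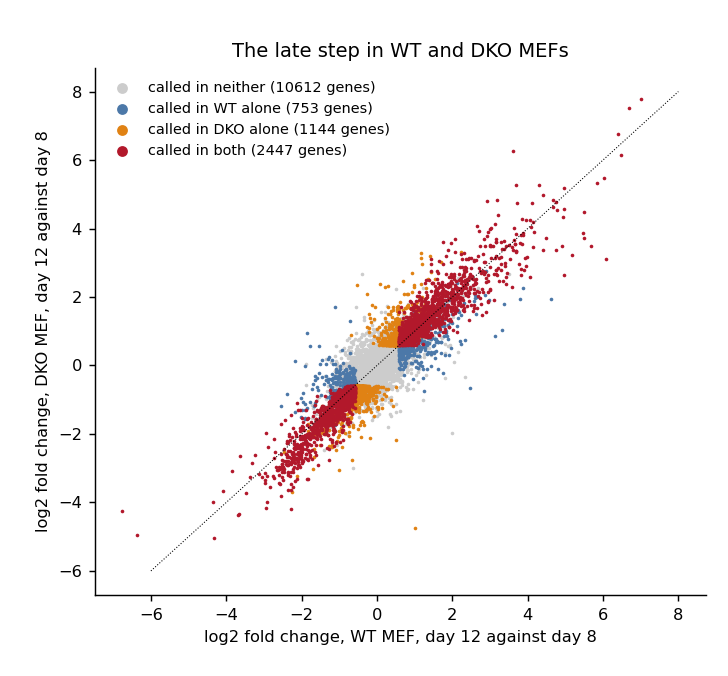
Log2 fold change from day 8 to day 12 in DKO MEFs (vertical) against WT MEFs (horizontal) for 14956 genes tested in both; each point is 1 gene and the dotted line marks equal change. The 2447 genes called in both lie along the line, and 753 and 1144 genes were called in WT or DKO alone.

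White preadipocytes of inguinal fat passed the same change of medium at day 4, between days 3 and 6, and WT values of that step are set beside those of the MEFs. The cells, days and time in the first medium differ, and the difference was not tested. There 7060 of 15368 genes were called (45.9%), 21.9% of those tested higher and 24% lower. Of the WT MEF calls 3025 were tested in preadipocytes, 1784 were called in the same direction (54.4% of the MEF calls and 25.3% of the preadipocyte calls) and 296 in the opposite one. Of the cell cycle list 31 of 31 fell in preadipocytes, and of the cyclic AMP list 12 of 16 fell and 2 rose, with log2 fold changes of -2.34 for Dio2 and -1.79 for Pde4b. Of the glucocorticoid list 11 of 23 rose there and 2 fell. Adipocyte markers rose in 29 of 29 cases. Of the contractile genes 6 of 15 rose in MEFs, whereas in preadipocytes 13 of 15 fell and none rose, for example Tagln with -3.31. Ccn2 and Ccnd1 rose in MEFs and had log2 fold changes of -4.18 and -2.82 in preadipocytes. Hmgn2 fell in MEFs and had a log2 fold change of -0.05 in preadipocytes.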

How the data were processed

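RNA of the 48 cultures was sequenced as 50 base paired-end reads. The submitters' processing notes name mm10, bcl2fastq 2.17, cutadapt 1.18, STAR 2.7.0f and RSEM 1.3.0. The authors deposited tables of expected counts for each cell type. These estimated counts were rounded to whole numbers here.

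Groups came from the sample labels. Genes were kept by edgeR's filterByExpr within the libraries compared, scaled by TMM, and tested in edgeR 4.0.16 (R 4.3.3) with the quasi-likelihood test and Benjamini-Hochberg adjustment over all genes tested. Genes past 1.5-fold in either direction at an adjusted p below 0.05 were called. SE is the standard error of the log2 fold change from the same fit, and CPM correlations used log2 values with 0.5 added. DESeq2 1.42.0, limma-voom (limma 3.58.1), other filters, thresholds and sample sets, a replicate block and leaving out each library were tried as alternatives. Scripts were tested on simulated data.

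The members and gene lists were chosen with earlier results of these data known. Genes were named by a rule: the 12 with the smallest p in each direction whose groups did not overlap, the 10 with the largest fold change above 5 CPM, up to 6 called genes a list, and the genes of the study. Key enzymes and receptors that were not called, and members cited for the split at day 8, were chosen after their values were seen. Of duplicated symbols the entry with the most counts was used, and 2 list symbols were updated to Ccn1 and Ccn2. Promoter windows are from RefSeq. The cyclic AMP list had a window for 14 of 17 genes and the cell cycle list for 26 of 31.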

Additional observations from a re-analysis of the deposited data

How the results depend on the processing

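With all 6 libraries 3282 genes were called. The count was 3488 with DESeq2, 3463 with limma-voom, 3310 with library size alone, 3143 with no filter on low counts, 3332 with a filter of 0.5 CPM, 3471 in 1 fit over all days of WT MEFs and 3327 in 1 fit over all MEF libraries. With the replicate number as a block it was 2874. Same-numbered libraries of the 2 days did not deviate together (correlations of -0.0354, -0.0157 and -0.00191). With 3 libraries a day, 1 of them apart at day 8, these values cannot show whether the numbers pair the samples. None of the called genes changed sign in any of these. With no fold change limit 6194 genes were called, 3088 higher and 3106 lower, and with a limit of 1 on the log2 scale 1809, 1107 higher and 702 lower. Leaving out 1 library gave 2508 to 4270 calls, 1429 to 2489 higher and 1049 to 1781 lower, with the most without day 8 replicate 2.

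For the interaction, which had 0 calls with all 12 libraries, DESeq2 called 37 (13 higher in DKO, 24 lower), limma-voom and no filter 5 each (1 higher, 4 lower) and library size alone 1, lower. Leaving out 1 library gave 0 to 8 (0 to 4 higher, 0 to 4 lower), the most without WT day 8 replicate 2, and leaving out both day 8 libraries that stood apart gave 98 (29 and 69), added after seeing the data.

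Some genes not called changed sign. Without single libraries the log2 fold change ranged over -0.0434 to 0.457 for Cebpa, -0.116 to 0.463 for Col1a1, -0.151 to 0.302 for Col1a2, -0.795 to 0.0353 for Lyz2, -0.0218 to 0.829 for Ppargc1b, -0.416 to 0.183 for Acadl, -0.0158 to 0.0458 for C1qa and -0.0124 to 0.0087 for Per1. Acadl was 0.111 with limma-voom, 0.105 with the block and 0.0302 in 1 fit over all MEF libraries. C1qa was -0.0147 with limma-voom and -0.0265 with library size alone. Per1 was 0.00675 with no filter, 0.00115 with a filter of 0.5 CPM, 0.00942 in the fit over WT MEFs and 0.0749 in the fit over all MEFs. The causes were not tested. With 3 libraries a day, 1 of them apart, 14 adipocyte markers were called with all 6 libraries and 21 without it, so a gene not called here may still differ. The calls of Lep, Cidec, Insig1, Pnpla2, Col4a5, Tpm2 and Cd34 were lost in 5 of the 6 fits that left out 1 library and held without day 8 replicate 2. Over these fits the number called higher ranged from 9 to 21 for adipocyte markers, 8 to 27 for nuclear genes of oxidative phosphorylation, 4 to 7 for cholesterol synthesis, 1 to 14 for interferon-stimulated genes, 1 to 5 for collagens, 2 to 7 for matrix remodelling and 0 to 5 for cytokines. Genes with a handful of counts, such as Ucp1, are known poorly.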

Other observations

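Circadian clock genes were more often higher at day 12. Of 16 tested 6 rose and 1 fell (median log2 fold change 0.47), and 9 rose and 1 fell without day 8 replicate 2. Among all genes tested 12.4% rose and 9.09% fell (15.9% and 11.4% without replicate 2). The repressor Per2 stood at 6.54, 6.09 and 7.19 CPM at day 8 and 13.4, 12.8 and 15.4 CPM at day 12, with a log2 fold change of 1.07 (1.01 without replicate 2), and Bhlhe40, another repressor of the clock, had one of 0.92 (0.96 without replicate 2). The nuclear receptor Nr1d1 had 0.92 (1.21 without replicate 2). The gene that fell was Hlf, an output transcription factor, at 13.8, 19.5 and 13.7 CPM at day 8 and 5.13, 5.55 and 4.19 CPM at day 12, with -1.66 (-1.46 without replicate 2). The hour at which the cells were collected is not given in the sources used here, and its part in these values was not tested.

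Markers of adipocyte progenitors moved both ways. Of 14 tested 5 rose and 3 fell (median 0.63), and without replicate 2 5 rose and 4 fell (median 0.33). Thy1, a surface antigen of fibroblasts, stood at 295, 575 and 286 CPM at day 8 and 124, 119 and 118 CPM at day 12 and had a log2 fold change of -1.68 (-1.27 without replicate 2), and Cd34, a stem and stromal cell antigen, one of -0.84 (-1.05 without replicate 2). Pdgfrb, the receptor of pericytes and stromal cells, and Klf2, an antiadipogenic factor, had 0.67 (0.70 without replicate 2) and 1.996 (1.84 without replicate 2). Of 19 stress response genes 2 rose and 3 fell (median -0.13), and without replicate 2 2 rose and 2 fell (median -0.15). That is about the rate of all genes tested, of which 12.4% rose and 9.09% fell (15.9% and 11.4% without replicate 2). Slc7a11, the cystine carrier, stood at 47.5, 61.6 and 45.9 CPM at day 8 and 13.6, 15.1 and 14.99 CPM at day 12 and had a log2 fold change of -1.83 (-1.68 without replicate 2). Of 15 genes of lipolysis 4 rose and 0 fell (median 0.63), and without replicate 2 6 rose and 1 fell (median 0.31), among them Pnpla2, the lipase of the first step, with 1.41 (1.03 without replicate 2), and the natriuretic peptide receptor Npr1, with 1.75 (1.44 without replicate 2). Of the endothelial markers Egfl7 stood at 4.01, 7.61 and 4.72 CPM at day 8 and 1.24, 1.52 and 1.44 CPM at day 12 with a log2 fold change of -1.95 (-1.63 without replicate 2), while Vwf had 4, 1 and 0 counts at day 8 and 18, 34 and 17 counts at day 12.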
